A study of Homo sapiens with 16 samples.

Results

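Lines with and without a form of HOTAIR that can bind LSD1 were compared by where LSD1 was called on the autosomes. The comparison used 8 lists of LSD1 islands, out of 16 libraries in the series, with 4 lists in each arm. Islands of all 8 lists that shared at least 1 bp were merged, which gave 41637 regions, and each region was scored by the number of libraries of each arm, from 0 to 4, that had an island in it. A region was counted as held by one arm where 3 or 4 of its libraries and 0 or 1 of the other arm's had an island. By this rule 39 regions were held by the arm with LSD1-binding HOTAIR and 4339 by the arm without it, 4378 in all.

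LSD1 (KDM1A) is a demethylase that removes methyl groups from lysine 4 of histone H3, usually as part of repressor complexes with CoREST. HOTAIR is a long non-coding RNA transcribed from the HOXC cluster, described as a scaffold whose 3′ part contacts LSD1 complexes and whose 5′ part contacts PRC2, the complex that methylates lysine 27 of the same histone. HOTAIR has been linked to loss of epithelial features in cultured cells.

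All libraries came from lines based on HEK, a human embryonic kidney cell line, grown to near confluence in MEM-alpha medium with no treatment recorded. The labels name the lines and say no more of them. As known of the study, Epi-CTR serves as control and Epi-HOT carries full HOTAIR. Epi-HOTΔP, written Epi-HOT<delta>P in the labels, carries a HOTAIR that lacks the part contacting PRC2. Epi-HOTΔL, written Epi-HOT<delta>L, carries one that lacks the part contacting LSD1. The arm with LSD1-binding HOTAIR is Epi-HOT and Epi-HOTΔP, and the arm without it is Epi-CTR and Epi-HOTΔL. Each line had 2 independently grown cultures, numbered replicate 1 and 2. The promoter that drives HOTAIR, its level and whether a line is a single clone are not given in the sources used here, and HOTAIR itself was not measured in these libraries. Each arm holds only 2 lines, so a feature of a single line cannot be told apart from a feature of its arm.

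The lists hold no reads, so sequencing depth is unknown, and a region without an island is a region where LSD1 was not called, not one where it is absent. Epi-HOT replicates 1 and 2 had 6504 and 1776 autosomal islands, Epi-HOTΔP replicates 1 and 2 had 1114 and 8077, Epi-CTR replicates 1 and 2 had 20551 and 14899, and Epi-HOTΔL replicates 1 and 2 had 16740 and 15681. In the same order, these islands covered 83.5 and 15.6, 12.6 and 78.3, 90.4 and 79.9, and 77.2 and 202.1 Mb. By covered length, Epi-HOT replicate 1 and Epi-HOTΔP replicate 2 were thus close to the Epi-CTR replicates and Epi-HOTΔL replicate 1. Epi-HOT replicate 2 and Epi-HOTΔP replicate 1 stood apart from the rest in length and in position, and the counts, the positions on chromosomes 13 and 19, the fits and the measures are given with and without them. Any region held by 3 libraries of their arm needs an island in at least one of these short lists, so their length bounds how many regions that arm could hold.

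LSD1 was called repeatedly at far fewer places in the arm with LSD1-binding HOTAIR. That arm had 121 regions with an island in at least 3 libraries and 12 with one in all 4, and the other arm had 5312 and 1955. The 39 regions held by the LSD1-binding arm were 0.0937% of all merged regions and the 4339 held by the other arm were 10.4%, a ratio of 111. Another 51 regions (0.122%) had an island in at least 3 libraries of both arms and are called shared below. An island in all 4 libraries of one arm and none of the other was found at 2 regions (0.0048%) for the LSD1-binding arm and at 453 (1.09%) for the arm without it.

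The recurrent regions of each arm were also looked up in the other arm. Of the 121 regions recurrent in the LSD1-binding arm, 19 (15.7%) had no island in the other arm, 20 (16.5%) had one in a single library, 31 (25.6%) in 2 libraries, 29 (24.0%) in 3 and 22 (18.2%) in all 4. Of the 5312 regions recurrent in the other arm, 2155 (40.6%) had no island in the LSD1-binding arm, 2184 (41.1%) had one in a single library, 922 (17.4%) in 2, 46 (0.866%) in 3 and 5 (0.0941%) in all 4. The single LSD1-binding library among the 2184 was Epi-HOTΔP replicate 2 in 1276 regions and Epi-HOT replicate 1 in 786, the long lists of the arm, and Epi-HOT replicate 2 in 104 and Epi-HOTΔP replicate 1 in 18.

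With 4 libraries per arm, a test of single regions could not decide between the arms. A two-sided Fisher's exact test of 4 libraries against 0 gives p = 0.0286, the smallest it can give, and 455 regions reached it. After Benjamini-Hochberg adjustment over all regions by this exact test the smallest adjusted p was 1 and 0 regions passed. The exact test gives 0.143 for 3 against 0 or 4 against 1, and 0.486 for 3 against 1. Because the smallest p is 0.0286, the adjusted test could pass 0.05 only if most regions reached it, so its outcome says nothing about any region. The sets are therefore described by their counts, and the rule itself fixes their direction.

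**Figure D1:**
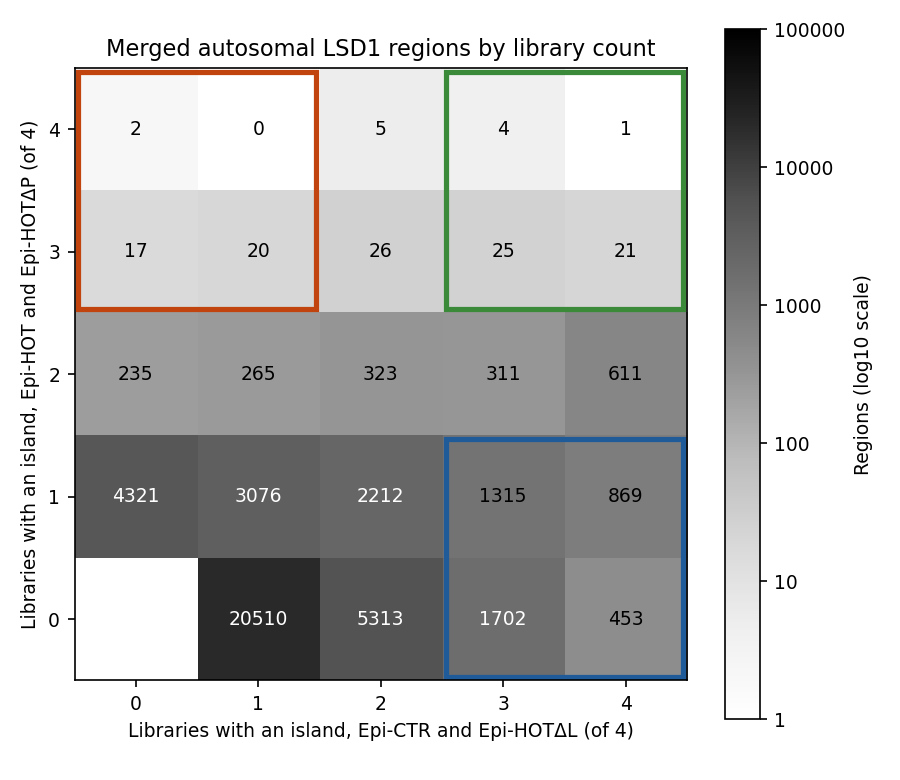
Number of merged autosomal regions at each combination of libraries with an island in Epi-CTR and Epi-HOTΔL (x axis, 0 to 4) and in Epi-HOT and Epi-HOTΔP (y axis, 0 to 4), shaded on a log10 scale. The red box holds the 39 regions of the LSD1-binding arm, the blue box the 4339 of the other arm and the green box the 51 shared regions; the fullest cell, with 20510 regions, is that of 1 library of Epi-CTR or Epi-HOTΔL and 0 of the other arm.

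Of the regions just past the limits, those with 2 libraries against 0 or 1 were more numerous than the 39, and those with 3 or 4 against 2 were fewer. A further 31 regions had 3 or 4 LSD1-binding libraries against 2 of the others, with a median width of 19.4 kb, and 500 had 2 against 0 or 1, with a median of 12.3 kb. For the other arm, 922 regions had 3 or 4 against 2 (median 44.6 kb) and 7525 had 2 against 0 or 1 (median 7.4 kb).

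The 39 regions of the LSD1-binding arm were 5.2 to 71.4 kb wide, with a median of 20.6 kb. All merged regions had a median of 5.8 kb, but 59.6% of them had an island in a single library. A region is the union of its islands, so asking for at least 3 libraries by itself favours wide regions. The 4339 of the other arm were 0.2 to 172.8 kb wide (median 14.4 kb), and the 51 shared regions 1.6 to 332.8 kb (median 22.8 kb). At least 3 lists of the arm shared a base in 26 of the 39 regions (66.7%) and in 3634 of the 4339 (83.8%), and the other regions were joined by a chain of islands. Counted in bases, positions covered by at least 3 LSD1-binding libraries and at most 1 of the others came to 363.2 kb, or 0.0921% of the 394 Mb covered by any island. Positions with the opposite pattern came to 20.8 Mb, or 5.28%.

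With 2 libraries per line, a region held by at least 3 libraries of an arm must have an island in both of its lines. Within that limit, the lines of the LSD1-binding arm contributed unequally. Both Epi-HOTΔP libraries and a single Epi-HOT library held 27 of the 39 regions (69.2%), both Epi-HOT libraries and a single Epi-HOTΔP library held 10 (25.6%), and all 4 held 2. Epi-HOTΔP replicate 1, the shortest list, had an island in 36 of the 39, Epi-HOTΔP replicate 2 in 32, Epi-HOT replicate 2 in 30 and Epi-HOT replicate 1 in 21. Islands in these regions made up 4.04% of the list of Epi-HOTΔP replicate 1 and 1.97% of that of Epi-HOT replicate 2, and only 0.409% and 0.338% of those of Epi-HOTΔP replicate 2 and Epi-HOT replicate 1. Where a single library of the other arm also had an island, in 20 regions, it was Epi-CTR replicate 1 in 10, Epi-HOTΔL replicate 1 in 7, Epi-CTR replicate 2 in 2 and Epi-HOTΔL replicate 2 in 1.

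The FDR, the authors' adjusted p-value of each island over Input, ranked these regions differently in the libraries that held them. Ranks are given as percentiles within a list, with 0 the best. In Epi-HOTΔP replicate 1 the islands in the 39 regions had a median percentile of 22.9, against 51.1 for its other islands, and 33.3% of them were in the best 10% of the list. In Epi-HOT replicate 2 the median was 33.6 against 50.4, with 11.4% in the best 10%. In the long lists it lay on the weak side, at 61.9 against 50.0 in Epi-HOT replicate 1 and 66.3 against 50.0 in Epi-HOTΔP replicate 2, where 0% were in the best 10%. Single regions went against these medians, such as chr1:144919401-144949200 (hg19, as all coordinates here, counted from 1), at percentile 93.6 in Epi-HOTΔP replicate 1, and chr9:36386401-36403400, at 2.12 in Epi-HOT replicate 1.

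Only 2 regions had an island in all 4 LSD1-binding libraries and in none of the others. The first, at chr13:106782401-106816200 (33.8 kb), was called with an FDR of 0.00447 and 3.54e-08 in Epi-HOT replicates 1 and 2 and of 1.99e-53 and 0.000657 in Epi-HOTΔP replicates 1 and 2. Islands covered 32.4 kb of it in Epi-HOTΔP replicate 1 and 5.4 to 10.8 kb in the other 3. The second, at chr1:144919401-144949200 (29.8 kb), was called in Epi-HOT replicates 1 and 2 at FDRs of 0.0270 and 3.45e-13, and in Epi-HOTΔP replicates 1 and 2 at 0.0129 and 0.000204. Islands there covered nearly the whole region in Epi-HOT replicate 2 (29.4 kb) and Epi-HOTΔP replicate 1 (29.8 kb), and 3.4 and 3.8 kb in Epi-HOT replicate 1 and Epi-HOTΔP replicate 2. In neither region did a base lie in an island of all 4 libraries: the most lists that shared one was 3.

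The other 8 named regions had islands in 3 LSD1-binding libraries and in none of the other arm. Among those away from chromosome 13, chr11:114419801-114425000 (5.2 kb) was the narrowest of the 39, with FDRs of 3.57e-29 in Epi-HOT replicate 2, 1.59e-159 in Epi-HOTΔP replicate 1 and 0.000966 in Epi-HOTΔP replicate 2. It was called over 4.4 to 5.2 kb in each of the 3, so the islands nearly coincided. A second region of chromosome 11, chr11:48355401-48367400, had 8.00e-06, 1.94e-78 and 0.000105 in the same libraries. Epi-HOT replicate 1 was the library without an island in both.

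Epi-HOT replicate 1 did hold 3 of the named regions with 3 libraries. It was called at chr9:36386401-36403400 with an FDR of 2.99e-10, beside 9.43e-06 in Epi-HOT replicate 2 and 3.08e-31 in Epi-HOTΔP replicate 1, although no more than 2 of these lists shared a base there. At chr15:71366801-71382600 the FDRs were 0.00528 in Epi-HOT replicate 1, 1.03e-15 in Epi-HOTΔP replicate 1 and 0.000819 in Epi-HOTΔP replicate 2. At chr6:25353201-25372600, the single named region without Epi-HOTΔP replicate 1, Epi-HOT replicates 1 and 2 had 0.01003 and 0.00169, beside 0.00117 in Epi-HOTΔP replicate 2. The remaining 3 named regions lay on chromosome 13, at chr13:103368001-103393000, chr13:103807601-103825800 and chr13:107633801-107654400, and each was held by Epi-HOT replicate 2 and both Epi-HOTΔP libraries. The membership of the 10 named regions rested on single libraries: 2 of them stayed in the set without Epi-HOTΔP replicate 1, 3 without Epi-HOTΔP replicate 2, 3 without Epi-HOT replicate 2 and 7 without Epi-HOT replicate 1, each time with all 3 remaining libraries required. Without both Epi-HOT replicate 2 and Epi-HOTΔP replicate 1, 2 stayed, and with lists of equal length 1 did.

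**Figure D2:**
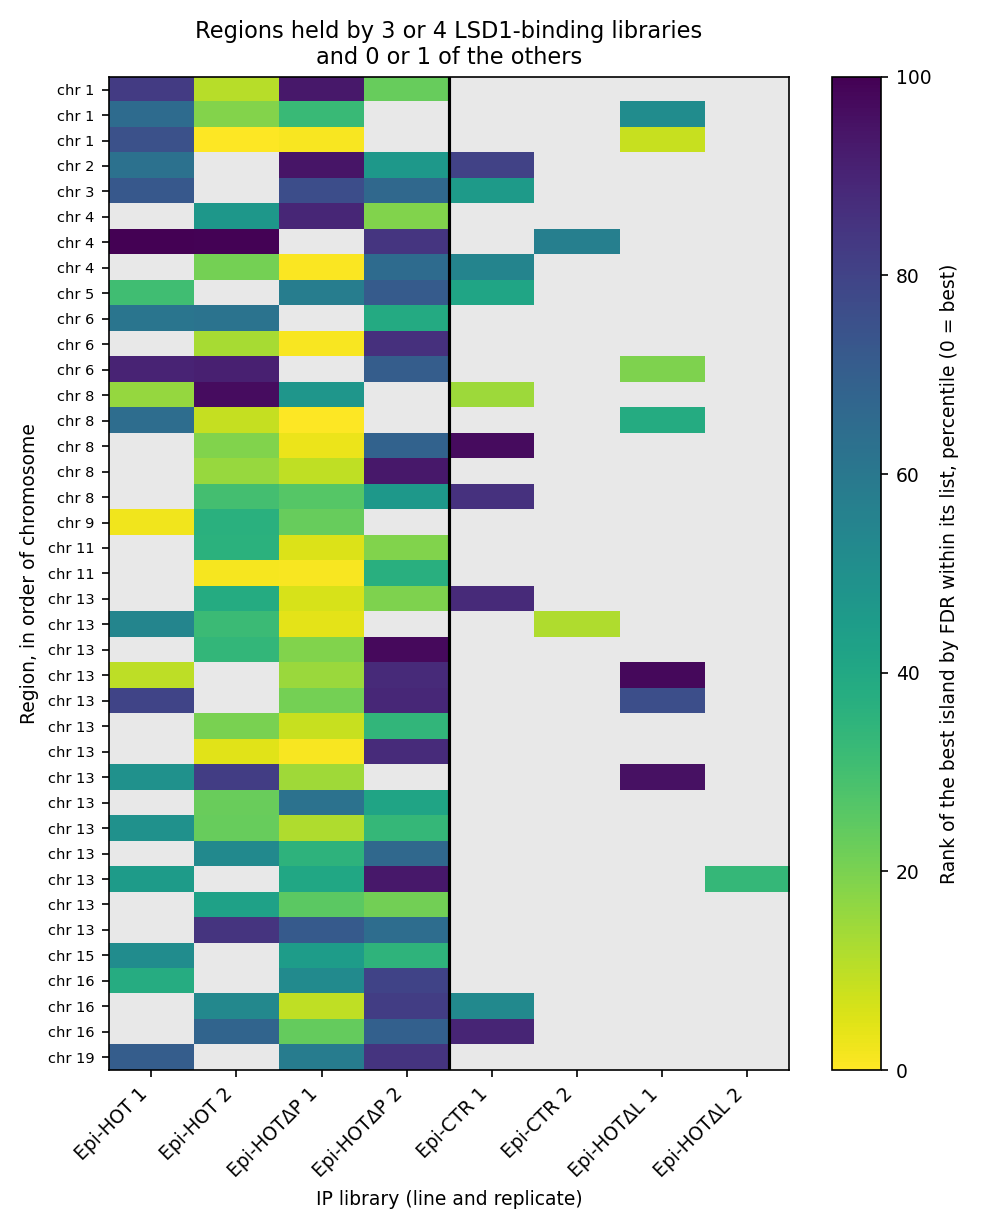
The 39 regions of the LSD1-binding arm (rows, in order of chromosome and position) in the 8 libraries (columns, the LSD1-binding arm left of the black line), coloured by the rank percentile of the best island by FDR within its own list, where 0 is the best and grey means no island. Epi-HOTΔP replicate 1 was filled in 36 rows and had a median island percentile of 22.9, Epi-HOT replicate 1 was filled in 21, and Epi-CTR replicate 2 and Epi-HOTΔL replicate 2 were grey in all rows but 2 and 1.

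Chromosome 13 held 14 of the 39 regions (35.9%), against 3.55% of all merged regions and 1.87% of the regions of the other arm. Of these, 13 lay between 90 and 110 Mb, where the other arm held 10 regions and 2 were shared, out of 662 merged regions. The next was chromosome 8, with 5 (12.8%), against 4.54% of all merged regions. Chromosomes 1, 4, 6 and 16 had 3 each (7.69%), against 10.2%, 3.79%, 5.51% and 3.70% of all merged regions, so chromosome 1 lay below its share. The window on chromosome 13 was chosen after the positions had been seen. Outside the chromosome 13 window 26 regions were left, and 21 outside it and chromosome 8. Epi-HOT replicate 2 and Epi-HOTΔP replicate 1 had the highest shares of their islands on chromosome 13, at 9.35% and 32.0%. Without these lists, and with both remaining libraries required, the arm held 236 regions, of which 13 (5.51%) lay on chromosome 13, against 3.18% of all regions merged that way, and 5 (2.12%) lay in the window.

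Neighbouring regions of the LSD1-binding arm formed small groups. With regions less than 500 kb apart joined, the 39 fell into 25 stretches, of which 18 were single regions. The largest held 4 regions each, at 103368001 to 103825800 and 106782401 to 107654400 of chromosome 13. In stretches at 144919401 to 145118400 of chromosome 1 and 129393801 to 129557600 of chromosome 8, 3 of 4 merged regions belonged to the set. At 70994801 to 71196000 of chromosome 16 it was 3 of 7. Stretches start and end at regions of the set, which by itself raises these shares. In windows of a few Mb around these 3 stretches, the set held 3 of 22, 4 of 99 and 3 of 62 merged regions. The other arm held 5, 3 and 6 there. Whether regions of the set lay closer together than scattered regions would was not tested.

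The 4339 regions of the arm without LSD1-binding HOTAIR were spread over all 22 autosomes. All 4 libraries held 1322 of them (30.5%), both Epi-CTR libraries and a single Epi-HOTΔL library 1770 (40.8%), and both Epi-HOTΔL libraries and a single Epi-CTR library 1247 (28.7%). Epi-CTR replicate 1 had an island in 91.6% of the regions, Epi-CTR replicate 2 in 79.6%, Epi-HOTΔL replicate 1 in 77.8% and Epi-HOTΔL replicate 2 in 81.4%. The LSD1-binding libraries had islands in 53.8% to 92.3% of the regions of their own arm. Regions were chosen by these same library counts, and list lengths differed more in the LSD1-binding arm, so the spreads are only a description. Islands in these regions made up 25.6% to 28.9% of each of the 4 lists.

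Their ranks by FDR, set against those of other islands in the same list, differed between libraries. In Epi-CTR replicate 1 the median percentile was 39.1, against 53.9 for its other islands, and in Epi-HOTΔL replicate 2 it was 43.1 against 52.1. In Epi-CTR replicate 2 it was 50.4 against 49.8, and in Epi-HOTΔL replicate 1 54.0 against 48.5. Islands of Epi-HOTΔL replicate 2 in these regions had a median width of 11.4 kb, against 4.2 to 5.0 kb in the other 3 libraries.

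The 10 named regions of this arm had an island in all 4 of its libraries and in none of the LSD1-binding arm. The best placed, at chr5:153568001-153574600 (6.6 kb), had FDRs of 2.17e-19 and 2.74e-09 in Epi-CTR replicates 1 and 2 and 7.62e-09 and 2.56e-22 in Epi-HOTΔL replicates 1 and 2. Each of the 4 islands was in the best 4.14% of its list. At chr16:14502401-14505400 (3.0 kb) the FDRs were 6.00e-10, 1.49e-16, 9.12e-08 and 1.43e-08 in the same order, the strongest in Epi-CTR replicate 2. At chr12:59267001-59275400 (8.4 kb) they were 1.07e-09, 4.38e-13, 7.83e-07 and 1.08e-05.

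Chromosome 19 carried 3 of the 10 named regions. At chr19:31838601-31845000 (6.4 kb), islands covered 3.0 to 5.6 kb in each library, and the FDR was 3.23e-10 and 1.37e-05 in Epi-CTR replicates 1 and 2 and 2.66e-05 and 2.40e-06 in Epi-HOTΔL replicates 1 and 2. At chr19:54593601-54637200 (43.6 kb), Epi-HOTΔL replicate 2 had 41.8 kb covered and the other libraries 5.4 to 8.2 kb, and the smallest FDR was 1.71e-29, in Epi-CTR replicate 1. At chr19:5424001-5462400 (38.4 kb) the covered length was 37.2 kb in Epi-HOTΔL replicate 2 and 8.2 to 10.0 kb in the others. The remaining 4 named regions were at chr20:55356001-55365800, chr3:64221601-64227000, chr22:27820401-27843800 and chr16:15134401-15150600.

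Gene-rich chromosome 19 held 261 regions of this arm (6.02%), against 3.09% of all merged regions. Of all merged regions on chromosome 19, 20.3% belonged to the set, the highest share of any autosome, followed by chromosomes 22 (15.3%), 16 (14.4%) and 17 (13.98%). The lowest share was 5.47%, on chromosome 13. Epi-HOT replicate 2 and Epi-HOTΔP replicate 1 had few islands on chromosome 19 (0.394% and 0.359% of their lists). Without these lists, and with a region required to be empty in both remaining libraries, 113 of 2270 regions (4.98%) lay on chromosome 19. It held 3.14% of all regions merged that way, and the 113 were 8.81% of those on it. Of the 854 regions shared by both arms under this setting, 107 (12.5%) lay on chromosome 19, so a raised share there was not particular to this arm.

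Many regions of this arm lay in long runs. Joined over gaps under 500 kb, the 4339 formed 1007 stretches, 396 of them single regions. The longest run by number had 73 regions, from 64320201 to 73741200 of chromosome 11, where they were 24.0% of 304 merged regions. A run of 72 regions from 44036001 to 51187800 of chromosome 19 took up 30.6% of 235. One of 41 from 97711401 to 102114400 of chromosome 7 took up 27.7% of 148. Over all merged regions the share was 10.4%. Runs start and end at regions of the set and these held the most, which by itself raises their shares. Whether the runs were longer than scattered regions would form was not tested. Within 5 Mb of an end of a chromosome's called extent lay 632 of the 4339 (14.6%) and 3 of the 39 (7.69%), against 12.7% of all merged regions.

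**Figure D3:**
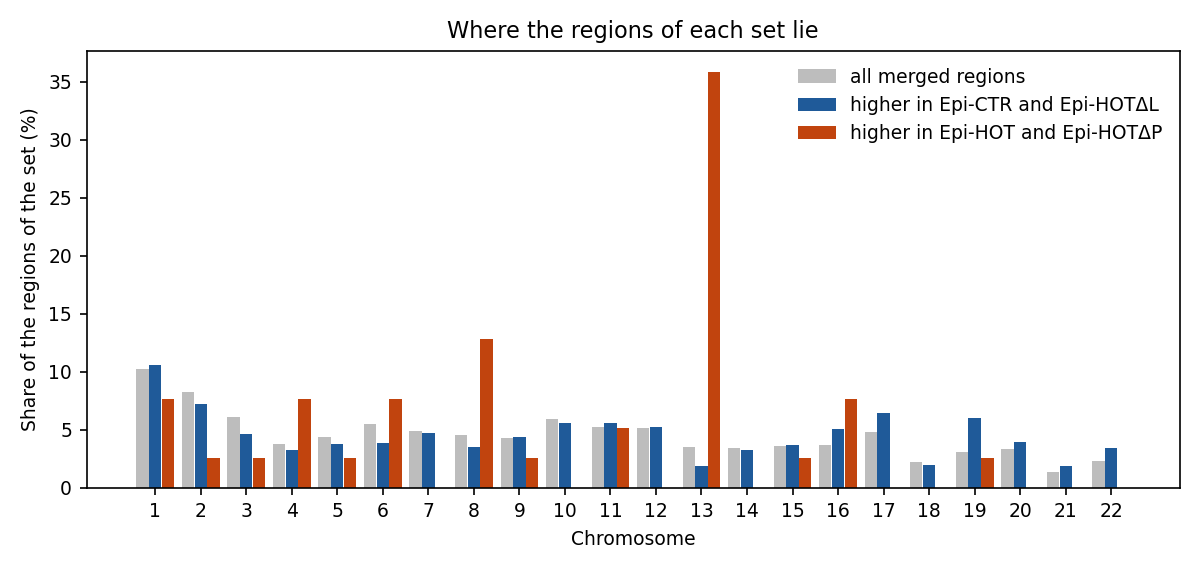
Share of all 41637 merged regions (grey), of the 4339 regions of Epi-CTR and Epi-HOTΔL (blue) and of the 39 regions of Epi-HOT and Epi-HOTΔP (red) on each autosome, in percent of each set. The red bar on chromosome 13 stands for 14 regions, and the blue bar exceeds the grey one most clearly on chromosome 19.

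The 51 shared regions show where LSD1 was called whether or not LSD1-binding HOTAIR was present. The single region held by all 8 libraries, at chr4:57937801-57949600, was called at FDRs of 5.14e-15 and 0.000262 by replicate in Epi-HOT, 1.65e-19 and 0.000355 in Epi-HOTΔP, 6.69e-26 and 3.96e-11 in Epi-CTR and 3.14e-10 and 0.000203 in Epi-HOTΔL. The other 4 named shared regions, at chr20:26188601-26190600, chr5:156988401-157011400, chr13:93913001-93923600 and chr19:4156601-4320400, were held by 7 libraries, and Epi-HOTΔP replicate 1 was the one without an island in each. Over the 51 regions that library had an island in 24 and the other LSD1-binding libraries in 43 to 48. Shared regions ranked best in the Epi-CTR libraries and Epi-HOT replicate 1, with median percentiles of 26.7 and 24.9 in Epi-CTR and 30.9 in Epi-HOT replicate 1. The medians were 39.3 and 38.2 in the Epi-HOTΔL replicates and 38.0 in Epi-HOTΔP replicate 1. In Epi-HOT replicate 2 and Epi-HOTΔP replicate 2 they were 52.3 and 50.8, no better than the 49.9 and 50.0 of their other islands.

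Libraries of the LSD1-binding arm overlapped one another little. The Jaccard index, the bases shared by 2 lists divided by the bases in either, had a median of 0.0129 over the 6 pairs within that arm (range 0.00476 to 0.108), 0.135 over the 6 pairs within the other arm (0.108 to 0.187) and 0.0577 over the 16 pairs between arms (0.0010 to 0.214). The index depends on list length, so these values are a description. Only the pair Epi-HOT replicate 1 and Epi-HOTΔP replicate 2, the long lists, reached 0.108 within the LSD1-binding arm, and Epi-HOT replicate 1 met 60.3% of its covered bases in Epi-HOTΔL replicate 2. The replicates of a line reached 0.0083 in Epi-HOT and 0.0171 in Epi-HOTΔP, against 0.187 in Epi-CTR and 0.144 in Epi-HOTΔL. With libraries of the other arm, Epi-HOT replicate 1 reached 0.112 to 0.214 and Epi-HOTΔP replicate 2 0.0878 to 0.154. The short lists, Epi-HOT replicate 2 and Epi-HOTΔP replicate 1, reached 0.0010 to 0.0275 there.

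Per library, 7 measures were compared between arms with a two-sided exact permutation test over the 70 regroupings of 4 against 4, whose smallest possible p is 0.0286. The median gap to the next island was 129.4 and 405.2 kb in the Epi-HOT replicates and 201.2 and 58.0 kb in the Epi-HOTΔP replicates, against 28 and 41.4 kb in Epi-CTR and 40.4 and 27.2 kb in Epi-HOTΔL. The arms did not overlap, and the geometric mean gap was 4.68 times longer (exact permutation p = 0.0286, adjusted over the 7 measures 0.100). The number of islands was 5.27 times lower in the LSD1-binding arm (exact permutation p = 0.0286, adjusted 0.100). Without Epi-HOT replicate 2 and Epi-HOTΔP replicate 1 the number was 2.32 times lower (exact permutation p = 0.0667, the smallest of 15 regroupings, adjusted 0.233). The log10 difference in gap was then 0.411 in place of 0.670 (exact permutation p = 0.0667, adjusted 0.233). With every list limited to its best 1114 islands, the median gap was 1.01 times longer in the other arm (exact permutation p = 0.971).

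Island width also separated most libraries of the arms, without passing after adjustment. Islands of at most 1 kb made up 0.384% and 0.169% of the Epi-HOT lists and 0.269% and 0.0743% of the Epi-HOTΔP lists, against 2.64% and 1.53% in Epi-CTR and 1.83% and 0.357% in Epi-HOTΔL. The means were 0.224% ± 0.133 (SD, n = 4) and 1.59% ± 0.945 (SD, n = 4), with overlap only between Epi-HOT replicate 1 and Epi-HOTΔL replicate 2 (exact permutation p = 0.0571, adjusted 0.100). Median island widths were 7.0 to 9.8 kb against 3.8 to 7.6 kb (exact permutation p = 0.0571, adjusted 0.100). With every list limited to its best 1114 islands, the log10 difference in median width was 0.0588 in place of 0.248 (exact permutation p = 0.857). Without Epi-HOT replicate 2 and Epi-HOTΔP replicate 1 it was 0.219 (exact permutation p = 0.200). The difference in the percent of islands of at most 1 kb was then -1.36, against -1.37 with all lists (exact permutation p = 0.267 without the pair).

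The other 3 measures overlapped widely. Islands of at least 20 kb made up 14.8% and 1.80% of the Epi-HOT lists, 5.48% and 3.24% of the Epi-HOTΔP lists, 0.292% and 0.920% of the Epi-CTR lists and 0.789% and 17.8% of the Epi-HOTΔL lists (exact permutation p = 0.657, adjusted 0.767). Without Epi-HOT replicate 2 and Epi-HOTΔP replicate 1 the difference in this percent was 4.06 (exact permutation p = 0.800), against 1.38 with all lists. Islands within 5 Mb of a chromosome end made up 4.00% to 19.03% against 12.6% to 22.8% (exact permutation p = 0.286, adjusted 0.400). The share of islands met by no other list was 20.9% to 44.2% against 26.1% to 36.6% (exact permutation p = 0.943 before and after adjustment). None of the 7 measures passed 0.05 after adjustment, and with lines as the units, 2 against 2, an exact test cannot give less than 0.333.

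To ask where each arm placed its islands once list length was scaled out, the length covered by islands was summed in 558 bins of 5 Mb, each list was scaled to the mean covered length of the 8 lists, and log2 of the scaled length plus 10 kb was tested with limma. After Benjamini-Hochberg adjustment 0 bins were higher (0%) and 0 were lower (0%) in the LSD1-binding arm, with a smallest adjusted p of 0.320 by limma. At an unadjusted p below 0.05 there were 22 bins, 3 higher and 19 lower. This count moved with the libraries, from 8 without Epi-HOTΔL replicate 1 to 113 (23 higher, 90 lower) without Epi-HOT replicate 1, with 76 without Epi-HOTΔP replicate 2, 36 without Epi-HOT replicate 2, and 12 without Epi-HOTΔP replicate 1 or Epi-CTR replicate 2. It was 18, 0 of them higher, without both Epi-HOT replicate 2 and Epi-HOTΔP replicate 1, 14 without Epi-HOTΔL replicate 2, and 189 (1 higher, 188 lower) without scaling. Over 16 other settings the smallest adjusted p ranged from 0.0502, without scaling, to 0.974.

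The bin with the smallest p was 65 to 70 Mb of chromosome 4. Islands there covered 0 kb in all 4 LSD1-binding libraries and 20.0, 14.8, 11.4 and 19.2 kb in Epi-CTR replicates 1 and 2 and Epi-HOTΔL replicates 1 and 2, a log2 difference of -1.18 (SE 0.24, limma adjusted p = 0.320) on the scale with 10 kb added. The next lower bins, at 100 to 105 Mb of chromosome 4 and 165 to 170 Mb of chromosome 3, had log2 differences of -1.29 (SE 0.37) and -1.36 (SE 0.45), both with a limma adjusted p of 0.623.

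The named bins with a positive difference, none of which passed, lay at 190 to 195 Mb of chromosome 4 and at 100 to 105 and 105 to 110 Mb of chromosome 13. Islands covered 95.2 and 303.4 kb of the 100 to 105 Mb bin in the Epi-HOT replicates, 909.6 and 413.4 kb in the Epi-HOTΔP replicates, 140.6 and 108.2 kb in the Epi-CTR replicates and 122.6 and 152.2 kb in the Epi-HOTΔL replicates. Epi-HOT replicate 1 lay below the other arm in these unscaled lengths. On the scaled lengths that were tested it had 91.1 kb, between the 60.2 kb of Epi-HOTΔL replicate 2 and the 108.3 to 126.9 kb of the other 3, so the arms overlapped on both scales. The log2 differences of the 3 bins were 2.72 (SE 1.03), 2.83 (SE 1.08) and 3.00 (SE 1.31), each with a limma adjusted p of 0.623. Without Epi-HOT replicate 2 and Epi-HOTΔP replicate 1 they were 1.49, 0.92 and 0.58 (limma adjusted p = 0.974, 0.974 and 0.976).

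**Figure D4:**
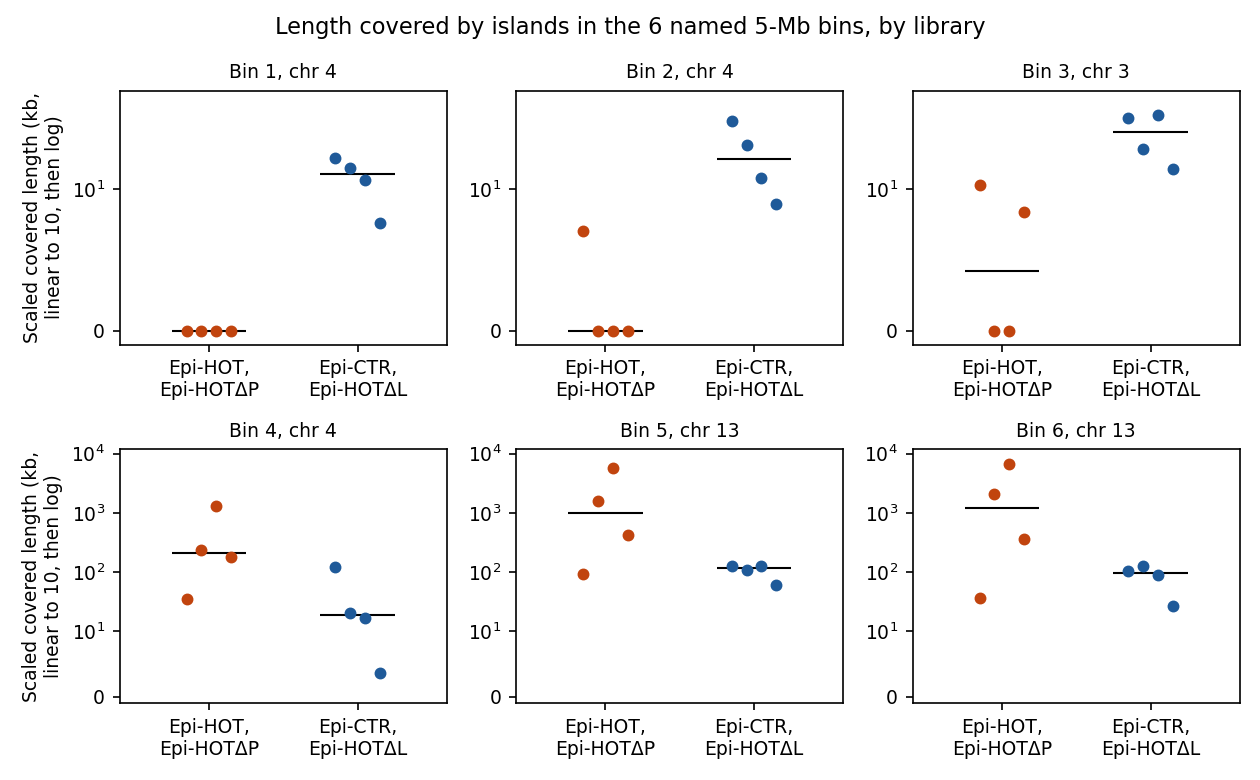
Length covered by islands, scaled to equal total covered length, in the 6 named 5-Mb bins for each of the 4 libraries of Epi-HOT and Epi-HOTΔP (red) and of Epi-CTR and Epi-HOTΔL (blue), with lines at the medians; the y axis is linear to 10 kb and logarithmic above. Bins 1 to 3, on chromosomes 4, 4 and 3, had lower medians in the LSD1-binding arm and bins 4 to 6, on chromosomes 4, 13 and 13, higher ones, with overlap between the arms in bins 4 to 6.

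By chromosome, log2 of the percent of a list's islands was tested with limma over the 22 autosomes. The adjusted test passed 0 autosomes in either direction (0%), with a smallest limma adjusted p of 0.371 and 0 autosomes at an unadjusted p below 0.05, and the arms overlapped on all 22. The differences were greatest for chromosome 13, at 1.65 (SE 0.73), and chromosome 19, at -2.03 (SE 1.01). Chromosome 13 carried 2.43% to 32.0% of the islands of an LSD1-binding library and 1.99% to 2.51% of the others. Without Epi-HOT replicate 2 and Epi-HOTΔP replicate 1 the differences were 0.38 (SE 0.16) for chromosome 13 and -0.03 (SE 0.13) for chromosome 19, with 1 autosome at an unadjusted p below 0.05 and a smallest limma adjusted p of 0.554. With a single library left out the smallest limma adjusted p ranged from 0.107, without Epi-HOTΔP replicate 2 (6 autosomes at an unadjusted p below 0.05), to 0.606, without Epi-HOTΔP replicate 1 (0 autosomes).

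Both sets of regions depended on the libraries used. A library left out also makes the rule stricter for its own arm, since all 3 remaining libraries must then hold a region. Without Epi-HOTΔP replicate 1, 4 regions of the LSD1-binding arm were left, and without Epi-HOTΔP replicate 2, Epi-HOT replicate 2 or Epi-HOT replicate 1 there were 9, 11 or 20. Without Epi-CTR replicate 1 or 2 there were 63 or 61. The regions of the other arm numbered 4360 to 5375 without a library of the LSD1-binding arm, and 1677, 2215, 2283 and 2013 without Epi-CTR replicates 1 and 2 and Epi-HOTΔL replicates 1 and 2. Without both Epi-HOT replicate 2 and Epi-HOTΔP replicate 1, and with an island in both remaining LSD1-binding libraries counted as high and none as low, the counts were 236 and 2270, a ratio of 9.62, and 854 regions were shared. With all lists limited to their best 1114 islands by FDR the counts were 8 and 140, a ratio of 17.5.

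**Figure D5:**
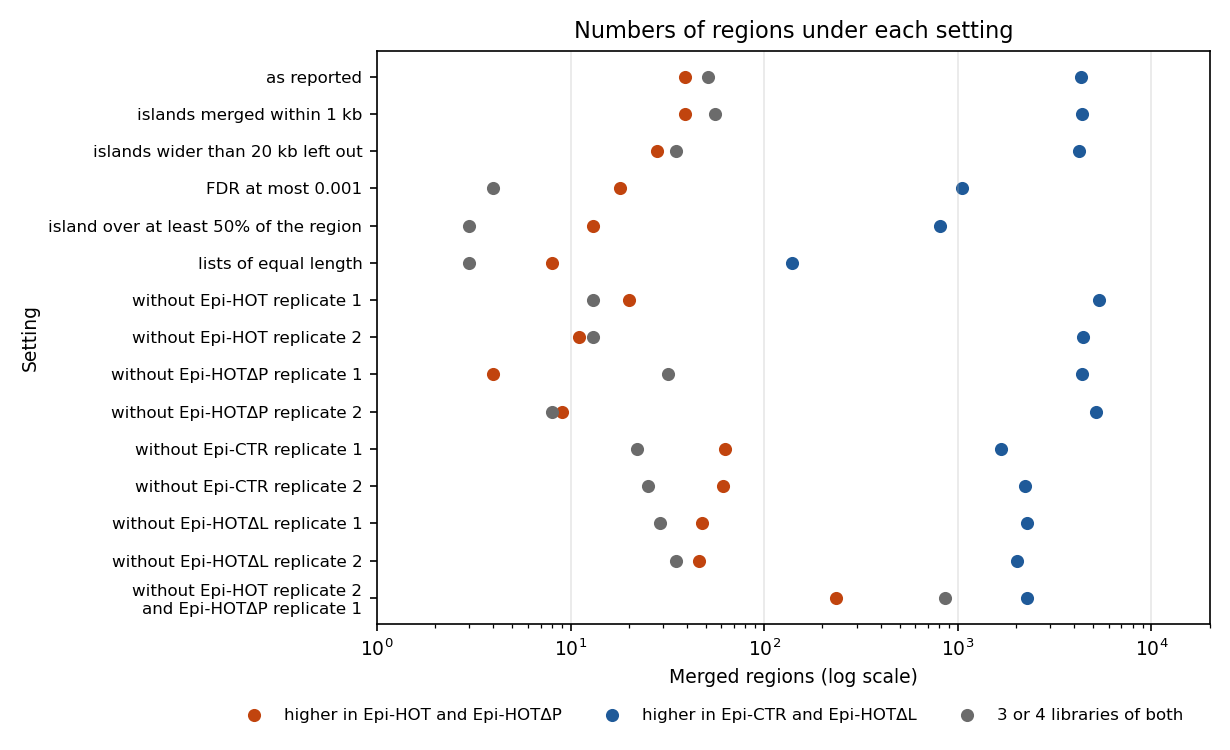
Number of merged regions (x axis, log scale) held by Epi-HOT and Epi-HOTΔP (red), by Epi-CTR and Epi-HOTΔL (blue) and by both arms (grey) under each setting (y axis). The blue points lie right of the red ones in every setting drawn, with 140 against 8 for lists of equal length, and the setting without Epi-HOT replicate 2 and Epi-HOTΔP replicate 1, which also lowers the limit to 2 of 2 libraries, has 854 shared regions against 51.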

How the data were processed

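LSD1 ChIP-seq islands of 8 IP libraries were used, and the Input libraries have no list of their own. Per the labels, whose text carries the list names, islands were called with 200 bp windows, 1000 bp gaps and an FDR of 0.05, and passed a further filter that is not described in the sources used here. Tools named in the submitters' processing notes, without roles, are SICER 1.1 and Bowtie2 2.1.0, with the build hg19. The only deposited measurement is the FDR, an adjusted p-value per island that the authors' caller gave. It served only for ranks and filters inside each list. Depth is unknown, and a list's length can follow depth or IP yield. Joined windows make island number depend on how continuous the signal is.

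Line names and replicates came from the labels, and lines were placed in arms by what is known of the study. Autosomal islands (85342) were merged, counted per arm and tested as described in the report, with limma 3.58.1 in R 4.3.3, and with scipy 1.17.1, pandas 2.3.3, numpy 2.4.6 and matplotlib 3.10.9 in Python 3.11.15. The counting was tested on simulated lists. Named regions are the 10 per arm, and 5 shared, with the largest difference in libraries (for shared regions, the most libraries), ties broken by the worst rank by FDR. Named bins are the 3 per direction with the smallest p. The regions and lists were chosen with earlier results of these data known. Libraries entered as samples although the replicates of a line share that line. Alternatives were stricter FDR, equal list length, island width, merging and overlap, bin settings, a replicate block, and each library left out. No genes or sequences are given, since the tables at hand belong to another build than hg19.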

Additional observations from a re-analysis of the deposited data

Results flagged for a closer look

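Of 58 groups of 4 libraries examined, 5 had a library far from the other 3, and chance alone flags about 1 group in 20. Epi-HOTΔL replicate 2 stood above the rest of its arm in median island width, at 7.6 kb against 3.8 to 4.4 kb, and in the share of islands of at least 20 kb, at 17.8% against 0.292% to 0.920%. In the LSD1-binding arm, Epi-HOT replicate 2 had 9.23% of its islands on chromosome 3, against 5.00% to 5.66% in the other 3 libraries, and 5.12% on chromosome 5, against 3.501% to 3.598%. Epi-HOTΔP replicate 1 had 2.78% on chromosome 9, against 4.87% to 5.18%.

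Chromosome X was outside the comparison, and the 8 lists held 213 islands on it. The Epi-HOT replicates had 50 and 0, both Epi-HOTΔP replicates 0, the Epi-CTR replicates 36 and 28 and the Epi-HOTΔL replicates 22 and 77, so the arms overlapped.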

How the results depend on the processing

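The regions of the LSD1-binding arm, of the other arm and shared by both numbered 39, 4339 and 51. They were 18, 1054 and 4 at an FDR of at most 0.001, 13, 806 and 3 where islands had to cover at least 50% of the region, 8, 140 and 3 with lists of equal length, and 236, 2270 and 854 without Epi-HOT replicate 2 and Epi-HOTΔP replicate 1, where 2 of 2 libraries also replaced 3 of 4 as high and 0 replaced 0 or 1 as low. Leaving out each library in turn, with at least 3 still required, gave 4 to 63, 1677 to 5375 and 8 to 35. Merging within 1 kb or leaving out islands over 20 kb kept each count within 1.5 times.

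Among the measures per library, the difference in the percent of islands of at least 20 kb (LSD1-binding arm minus the other) turned from 1.38 to -0.588 at an FDR of at most 0.001 and to -10.95 with equal lists, and ranged from -1.43 to 5.65 with a library left out. That in the percent met by no other list turned from -0.408 to 1.38 and 19.6, and ranged from -3.90 to 3.06, with -7.74 without Epi-HOT replicate 2 and Epi-HOTΔP replicate 1, a setting added for the measures after the data had been seen. The log10 gap turned from 0.670 to -0.00645 with equal lists, where the number of islands is fixed and has no value. That in the percent within 5 Mb of a chromosome end ranged from -7.743 to -2.73 with a library left out and turned from -5.15 to 1.33 without that pair. The cause of these changes was not tested. No bin, autosome or measure passed adjustment under any setting run.

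Replicate numbers were used as a replicate block, although with 2 per line they are not known to pair cultures: replicate differences correlated between lines with r from -0.627 to 0.483 over 558 bins. With the block the smallest permutation p of a measure was 0.0556 (exact, 36 regroupings, adjusted 0.0972), and limma gave 0 bins and 0 autosomes, with smallest adjusted p-values of 0.634 and 0.433. Unknown depth limits every count.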
